A study of Mus musculus with 6 samples.

Results

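A set of 10 genes of the Notch pathway was followed across cultures of the mouse mammary tumor line Wnt1-YL in which the surface protein Sca-1 was knocked down or left in place. The genes are the receptors Notch1, Notch2 and Notch3, the ligands Jag1, Jag2 and Dll1, and the target genes Hes1, Hey1, Heyl and Nrarp. They were chosen by name, and every probe set that the array's annotation assigned to one of them alone was taken, which gave 19 probe sets in all. These stand among 45037 probe sets tested, which represent 18194 genes. One group of cells carried an shRNA against Sca-1 (shSca-1, 3 arrays), and the control cells carried an shRNA against luciferase, a gene that mouse cells lack (shLuc, 3 arrays).

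As far as the labels and methods say, the groups differed only in the target of the shRNA. Wnt1-YL was grown from an invasive carcinoma of an FVB/n mouse carrying the Wnt1 transgene under the MMTV promoter, so all cells descend from the tumors of that model and form 1 line. Both received a pLKO lentivirus, were selected in puromycin, and were cultured with serum, insulin and EGF. The labels call the replicates biological, and nothing says whether each was a culture of its own. The p-values therefore set the group difference against variation between arrays, which may not be that between separate cultures. Each value is a model intensity in linear units, computed and normalized by the authors. Intensities are compared between arrays only for the same probe set, or as a sum over the same probe sets. Such a sum is weighted toward the brighter probe sets.

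Notch receptors are single-pass membrane proteins that are activated by ligands of the Delta and Jagged families on a neighboring cell. Ligand pulling exposes the receptor to cleavage by an ADAM protease and then by γ-secretase. The freed intracellular domain enters the nucleus, joins RBPJ and a Mastermind co-activator, and switches on genes such as those of the Hes and Hey families. In the mammary gland the pathway is known for favoring the luminal fate, and integrated MMTV can activate Notch1 or Notch4 in mouse mammary tumors. Receptor cleavage was not measured here, since the arrays read RNA.

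Ly6a, which encodes Sca-1, checks the labels. Its intensity was 285, 314 and 306 on the shSca-1 arrays, against 7646, 7362 and 2843 on the shLuc arrays. The 2 groups did not overlap, and the log2 difference, shSca-1 minus shLuc, was -4.17 (SE 0.36, adjusted p = 0.051 from limma), or -4.64 without shLuc replicate 3 (adjusted p = 5.2e-07 from limma). The annotation table gives this probe set no symbol, and its name comes from the study's supplementary gene table.

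shLuc replicate 3 stood apart from the other 5 arrays. Its highest correlation with any array was 0.924, against 0.957 to 0.963 for the rest, while the array medians lay between 37.3 and 40.7. The luminal keratins marked it, with Krt18 at 7175 and Krt8 at 1303 on this array, against 37.7 to 65.2 and 19.7 to 33.1 on the others. The 12 luminal markers, all measured, summed to 567, 574 and 544 on the shSca-1 arrays and to 576, 492 and 17573 on the shLuc arrays. The 8 basal markers summed to 29437, 29156 and 32009 on the shSca-1 arrays and to 33291, 33325 and 18126 on the shLuc arrays. Of the 8 basal markers, 5 were over 100 on every array (Krt5, Krt14, Krt17, Trp63 and the smooth muscle actin gene Acta2) and 3 were under 50 on every array (Cnn1, Myh11 and Oxtr). Krt5 was 3141 on shLuc replicate 3 and between 9576 and 11431 on the other arrays. Krt14 and Trp63 were also lowest on shLuc replicate 3. Krt17 and Acta2 were not, at 1454 and 4776 there, against 825 to 1655 and 4630 to 9056 on the other arrays. Markers of endothelium summed to 131 to 149, of leukocytes to 320 to 587 and of fibroblasts to 477 to 1178 over the 6 arrays. Counting only differences whose higher side was at 64 or more, on shLuc replicate 3, 445 of 18194 genes (2.45%) lay at least 2-fold below every other array and 659 (3.62%) at least 2-fold above it. Among the 10 Notch genes these were Dll1, Jag1 and Jag2 below and Hey1 above, and no other array held a Notch gene of this kind. The comparisons are therefore also given without shLuc replicate 3, and the part of luminal RNA in it was not tested.

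No Notch gene passed an adjusted p of 0.05 on all 6 arrays, where 0 of 18194 genes (0%) passed from limma. At an unadjusted p under 0.05 from limma, 3 of the 10 passed (Notch2, Notch3 and Hes1, all lower in shSca-1 cells). Over all 18194 genes 10.6% passed in either direction, 1283 lower and 650 higher. The methods' thresholds, a fold over 1.5 with an unadjusted p under 0.01, were met by none of the 10 and by 373 genes (2.05%). The 3 arrays of shSca-1 cells lay below all 3 shLuc arrays for Notch2, Notch3 and Hes1, as they did for 11.5% of all genes, and above them for Dll1, as for 7.18%. Without shLuc replicate 3, Hes1 passed an adjusted p of 0.05, lower in shSca-1 cells, as did 497 genes lower (2.73%) and 212 higher (1.17%). On the same 5 arrays, every shSca-1 array lay below both shLuc arrays for 4 of the 10 (Notch1, Notch2, Notch3 and Hes1), as for 21.7% of all genes, and above both for 2 (Dll1 and Hey1), as for 15.4%. The methods' thresholds were then met by 1 of the 10 (Notch1), as by 4% of all genes. The median log2 difference over the 10 genes was -0.18, against -0.04 over all genes, and -0.25 against -0.04 without shLuc replicate 3.

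**Figure D1:**
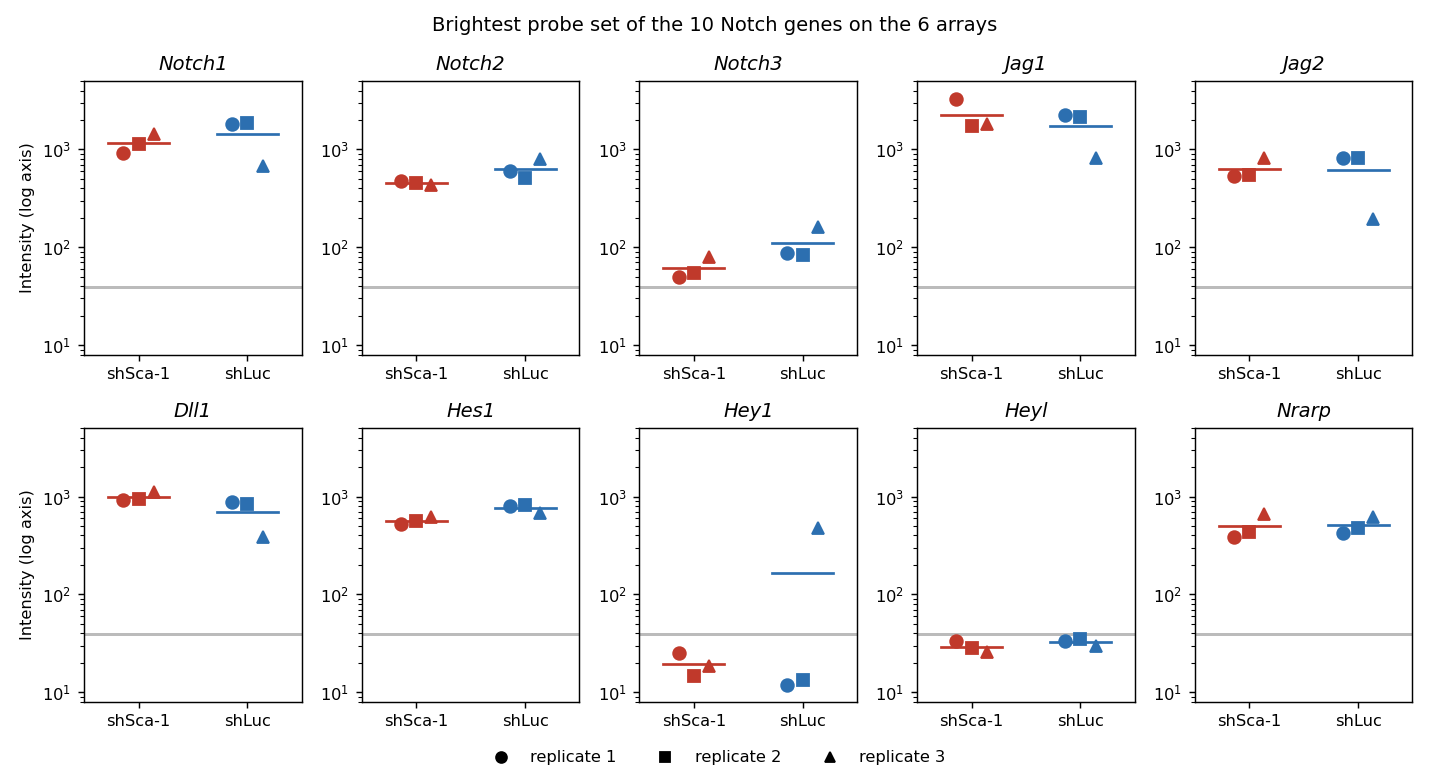
Intensity of the brightest probe set of each Notch gene on each array (log axis), with shSca-1 in red on the left and shLuc in blue on the right, symbols for replicates, a line at the mean of 3 arrays and a grey band over the range of the 6 array medians, 37.3 to 40.7. The shSca-1 points lay below all shLuc points for Notch2, Notch3 and Hes1, and shLuc replicate 3 was the lowest array for Notch1, Jag1, Jag2 and Dll1 and the highest for Notch2, Notch3 and Hey1.

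The receptors had negative log2 differences in all 3 cases, and none passed an adjusted p of 0.05. In bulk RNA, fewer cells of a type and less RNA per cell cannot be told apart, here and below. Notch2 (probe set 1455556_at) was measured at 479.8, 456 and 436 on the shSca-1 arrays, against 595, 512 and 799 on the shLuc arrays. The groups did not overlap, with means of 457 ± 21.8 in shSca-1 cells and 636 ± 148 in shLuc cells (SD, n = 3 each). This gave a log2 difference of -0.45 (SE 0.17, adjusted p = 0.50 from limma), and -0.27 without shLuc replicate 3 (adjusted p = 0.23), which was the highest of the 6 arrays. A second Notch2 probe set was dim, between 1.57 and 27.1 on all arrays, with a log2 difference of 0.60 (SE 1.06), or 1.05 without shLuc replicate 3 (SE 1.11). The 2 probe sets differed in sign, and the dim one carried the larger error.

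Notch3 (1421965_s_at), the receptor best known from vascular smooth muscle, was at 49.9, 54.55 and 79.4 in shSca-1 cells and at 86.8, 83.7 and 159.7 in shLuc cells. All 3 shSca-1 values lay below all shLuc values, with a log2 difference of -0.81 (SE 0.31, adjusted p = 0.51 from limma). The highest shSca-1 value and the lowest shLuc value were close. Without shLuc replicate 3, again the highest of the 6 arrays, the difference was -0.51 (adjusted p = 0.36). The other Notch3 probe set lay between 7.82 and 38.2 on the 6 arrays, with a log2 difference of -0.72 (SE 0.54, adjusted p = 0.73), or -0.44 without shLuc replicate 3 (adjusted p = 0.78). With 3 arrays a group, the smallest two-sided p of an exact permutation test is 0.1. Notch2, Notch3, Dll1 and Hes1 reached it, which follows from their groups not overlapping and adds nothing to it. The groups did not overlap for 11.5% of all genes as lower and 7.18% as higher in shSca-1 cells.

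The Notch1 values depended on shLuc replicate 3. Its brightest probe set, 1418634_at, had 925, 1144 and 1429.9 in shSca-1 cells, against 1806, 1861 and 671 in shLuc cells. Every shSca-1 array lay between the third shLuc array and the other two. The log2 difference was -0.19 (SE 0.40, adjusted p = 0.91 from limma). Without that array it was -0.68 (SE 0.16, adjusted p = 0.075), and the groups did not overlap. The second Notch1 probe set followed the same order, at 233, 265 and 283 in shSca-1 cells and 435, 355 and 120.1 in shLuc cells, with differences of -0.03 on 6 arrays and -0.60 without shLuc replicate 3 (adjusted p = 0.061). Without it, both Notch1 probe sets met the methods' thresholds, as did 3.56% of all probe sets.

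The promoters of the 3 receptors are shown since receptors were the role whose brightest probe sets all had differences of one sign both with and without shLuc replicate 3. As a description of their letters only, they were searched for motifs of the pathway's own factors, the N-box bound by Hes proteins (CACNAG, N any base, either strand) and the core bound by RBPJ. The 250 bases before each start site, from RefSeq on GRCm38.p6, are printed 5′ to 3′ on the gene's strand, with N-box matches in capitals.
Notch1: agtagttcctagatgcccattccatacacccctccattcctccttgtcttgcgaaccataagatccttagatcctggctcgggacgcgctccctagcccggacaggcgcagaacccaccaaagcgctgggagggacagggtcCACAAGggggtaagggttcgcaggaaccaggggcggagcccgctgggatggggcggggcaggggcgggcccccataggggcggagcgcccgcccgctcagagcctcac
Notch2: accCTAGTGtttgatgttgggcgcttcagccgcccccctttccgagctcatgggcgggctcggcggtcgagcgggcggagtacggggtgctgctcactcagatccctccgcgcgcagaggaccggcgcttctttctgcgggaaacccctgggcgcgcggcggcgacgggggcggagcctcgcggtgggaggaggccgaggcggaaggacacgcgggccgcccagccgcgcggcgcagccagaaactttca
Notch3: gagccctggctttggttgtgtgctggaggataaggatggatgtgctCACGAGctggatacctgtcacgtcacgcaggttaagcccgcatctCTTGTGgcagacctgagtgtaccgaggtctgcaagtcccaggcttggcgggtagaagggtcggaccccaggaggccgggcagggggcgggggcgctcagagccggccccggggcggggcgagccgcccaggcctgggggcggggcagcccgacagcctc
The Notch1 window is chr2:26503823-26504072 on the minus strand, that of Notch2 is chr3:98013288-98013537 on the plus strand, and that of Notch3 is chr17:32166891-32167140 on the minus strand. The first printed base of the match lay 108 bases before the start in Notch1, 247 in Notch2, and 204 and 159 in Notch3. Of 32851 promoters of the same length, 36.7% hold the N-box. The RBPJ core TGGGAA, on either strand, was in none of these 3, nor in the windows of Jag1, Jag2, Dll1 and Nrarp, and is in 21.6% of all promoters. Nrarp held the N-box 2 times, at 179 and 79 bases before the start, and the windows of Jag1, Jag2 and Dll1 held none. A match is a description of letters, not a site of binding.

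The ligands had positive log2 differences on all 6 arrays, and 2 of the 3 were negative without shLuc replicate 3. Jag1 encodes a Jagged ligand, and its brightest probe set, 1434070_at, had 3262, 1738 and 1817 in shSca-1 cells, against 2235, 2157 and 810.3 in shLuc cells. The groups overlapped, with shSca-1 replicate 1 the highest of the 6 and shLuc replicate 3 the lowest. The log2 difference was 0.47 (SE 0.43, adjusted p = 0.79 from limma), and -0.01 without shLuc replicate 3 (SE 0.24, adjusted p = 0.99). The other 2 Jag1 probe sets had 989, 947 and 870.4 in shSca-1 cells against 1114, 1022 and 195.6 in shLuc cells, and 249.6, 280.2 and 226 in shSca-1 cells against 274, 253 and 62.0 in shLuc cells. shLuc replicate 3 was the lowest array on all 3 Jag1 probe sets, 2.71-fold, 5.46-fold and 4.25-fold below the mean of the other shLuc arrays. The log2 differences of the other 2 were 0.62 and 0.63 on 6 arrays and -0.19 and -0.07 without it.

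Jag2 (1426431_at), the other Jagged ligand, had 534, 548 and 818 in shSca-1 cells and 814, 820.2 and 195.3 in shLuc cells. The value on shSca-1 replicate 3 was close to those on shLuc replicates 1 and 2, above the other shSca-1 arrays. Again shLuc replicate 3 was the lowest array, 4.18-fold below the mean of the other shLuc arrays. On 6 arrays the groups differed by 0.29 on the log2 scale (SE 0.55, adjusted p = 0.90 from limma), and by -0.40 once that array was left out (SE 0.18, adjusted p = 0.32). Its second probe set gave 0.00 (SE 0.41) on 6 arrays and -0.49 without it (adjusted p = 0.21), when the groups did not overlap. The highest shSca-1 value there, 551, and the lower of the remaining shLuc values, 557, were close. On the brightest probe set the groups overlapped with and without shLuc replicate 3.

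Dll1 (1419204_at), a Delta-like ligand, was the only one of the 10 with every shSca-1 array above every shLuc array, at 912, 943 and 1103, against 885, 833 and 383 in shLuc cells. The lowest shSca-1 value and the highest shLuc value were close. The log2 difference was 0.58 (SE 0.31, adjusted p = 0.63 from limma), with means of 986 ± 102 in shSca-1 cells and 700.6 ± 276 in shLuc cells (SD, n = 3 each). Without shLuc replicate 3, which lay 2.24-fold below the other shLuc arrays, it was 0.19 (SE 0.10, adjusted p = 0.40).

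**Figure D2:**
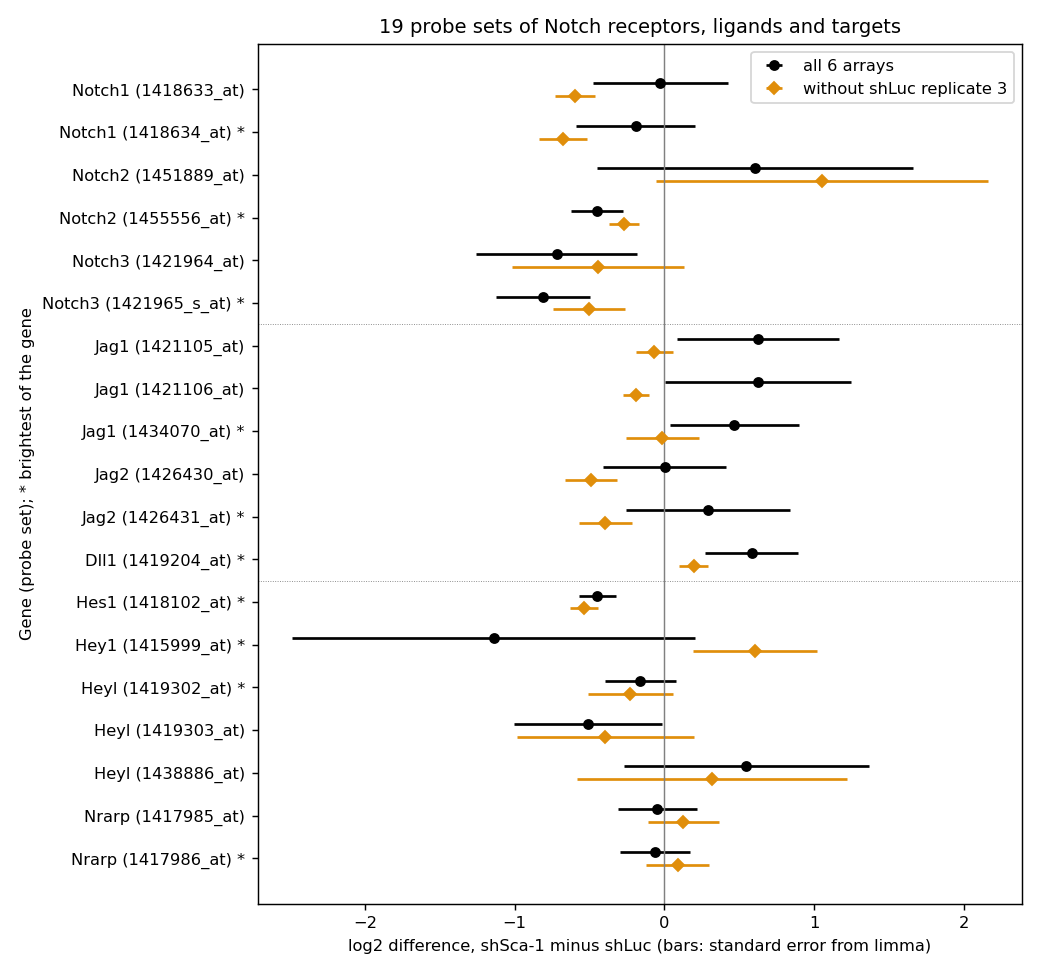
Log2 difference, shSca-1 minus shLuc, with its standard error for each of the 19 probe sets on all 6 arrays (black circles) and without shLuc replicate 3 (orange diamonds), with the brightest probe set of each gene starred. Jag1, Jag2, Hey1 and Nrarp had the opposite sign on their brightest probe set without this array, and the Notch1 difference grew to -0.68.

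Among the targets, Hes1 alone had groups that did not overlap on all 6 arrays. Hes1 encodes a basic helix-loop-helix repressor and is a direct target of the Notch complex. Its probe set, 1418102_at, had 522, 557 and 611 on the shSca-1 arrays, against 809, 821 and 677 on the shLuc arrays, and shLuc replicate 3 was the closest of the shLuc arrays to the shSca-1 values. The means were 563 ± 44.9 in shSca-1 cells and 769 ± 80.2 in shLuc cells (SD, n = 3 each). The log2 difference was -0.45 (SE 0.12, unadjusted p = 0.0078, adjusted p = 0.34 from limma), a 1.36-fold difference. Without shLuc replicate 3 it was -0.54 (SE 0.09, adjusted p = 0.028 from limma), and this call was lost when shSca-1 replicate 1 or 2 was left out too. It was also lost with dim values raised to 16 or 64, with no trend in the variance and with the methods' t-test. Hes1 was thus lower in 3 of 3 shSca-1 arrays by less than the methods' fold.

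Hey1, a related repressor, was near background except on 1 array. Its probe set, 1415999_at, had 25.1, 14.75 and 18.75 in shSca-1 cells, against 11.75, 13.3 and 473 in shLuc cells. shLuc replicate 3 was 37.7-fold above the mean of the other shLuc arrays, while 5 arrays lay below their medians. Over 6 arrays the log2 difference was -1.14 (SE 1.35, adjusted p = 0.83 from limma), and 0.61 (SE 0.41, adjusted p = 0.54) on the 5 without shLuc replicate 3, where every shSca-1 value lay above both shLuc values. Luminal keratins were high on the same array, which held 659 genes (3.62%) at least 2-fold above every other array, as given above. A link between them and Hey1 was not tested.

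Heyl, a further repressor of the Hey family, was below the array medians on each of its 3 probe sets and arrays. Its brightest one, 1419302_at, had 33.5, 28.2 and 25.9 in shSca-1 cells and 33.15, 34.9 and 29.6 in shLuc cells, a log2 difference of -0.16 (SE 0.24, adjusted p = 0.87 from limma) or -0.23 without shLuc replicate 3. The groups overlapped, and the other 2 probe sets differed by -0.51 and 0.55. Nrarp (1417986_at), a target that limits Notch signaling by binding the intracellular domain complex, had 387, 435 and 663 in shSca-1 cells, against 425, 482 and 621 in shLuc cells. The groups overlapped closely, with a difference of -0.06 (SE 0.23, adjusted p = 0.96 from limma), or 0.09 without shLuc replicate 3 (adjusted p = 0.89), and -0.05 on its second probe set.

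The median over the 3 receptors was -0.45 and over the 4 targets -0.30, and over the 3 ligands 0.47. On the 5 arrays other than shLuc replicate 3 the medians were -0.51 for receptors, -0.07 for targets and -0.01 for ligands. The remaining pathway was read from 4 lists of other receptors and ligands, of processing and modification, of the nuclear complex and its co-repressors, and of other targets. Of the 74 genes listed, 69 had a probe set of their own. The methods' thresholds were met by 1 of the 69 (Mib2, lower in shSca-1 cells), against 2.05% of all genes. An unadjusted p under 0.05 was reached by 7 of the 69, 5 of them lower, against 10.6% of all genes. Neither share was above that over all genes. The median log2 difference was -0.04, with 32 positive and 37 negative, and -0.09 without shLuc replicate 3. By list the medians were 0.42 over 6 other receptors and ligands, -0.08 over 28 processing genes, -0.12 over 21 nuclear genes and 0.04 over 14 other targets. These became 0.31, -0.12, -0.09 and -0.12, in the same order, without shLuc replicate 3. Thus the lists other than that of receptors and ligands lay near the value over all genes. In the list of other receptors and ligands, only Dlk2 was above the array medians on every array, at 317 to 429. Its log2 difference was 0.0037, or -0.04 without shLuc replicate 3. The other genes of that list were near or below the array medians on most arrays, so its median rests on dim values.

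**Figure D3:**
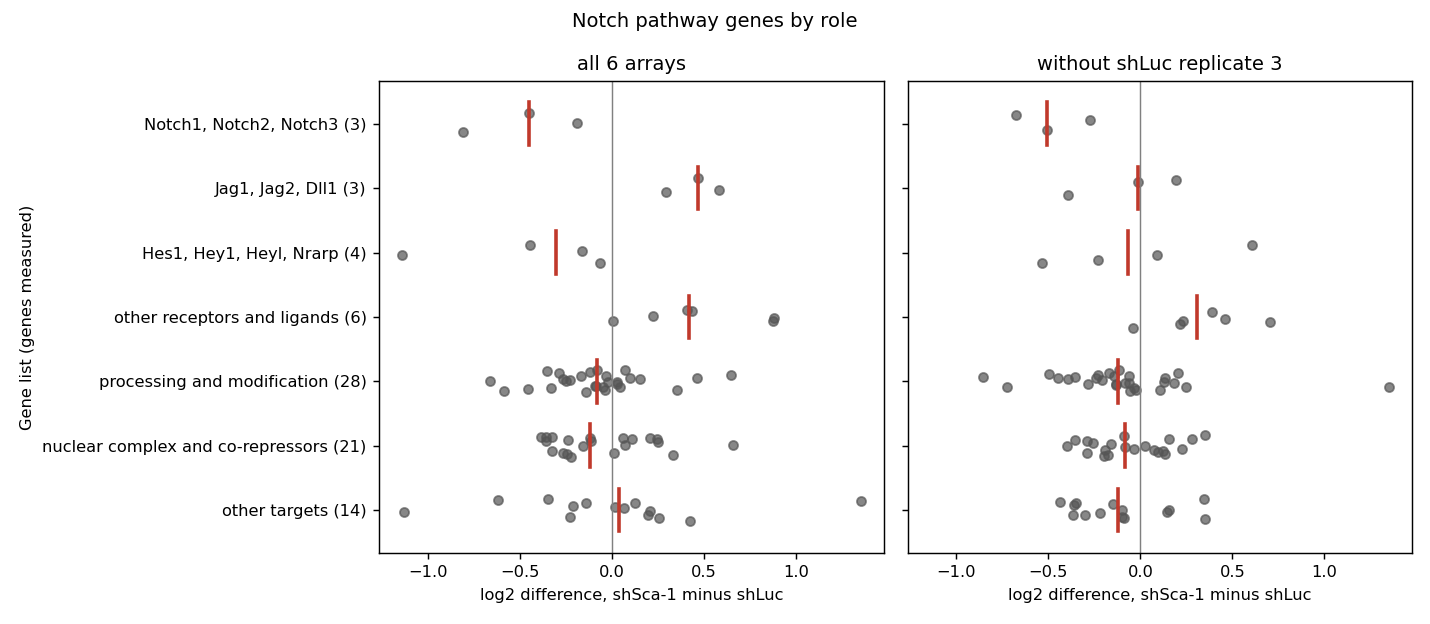
Log2 difference, shSca-1 minus shLuc, for each measured gene of the Notch lists (grey points) with the median of each list (red line), on all 6 arrays at the left and without shLuc replicate 3 at the right. The ligands Jag1, Jag2 and Dll1 had a median of 0.47 on 6 arrays and -0.01 without this array, while the receptors had -0.45 and -0.51.

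Mib2, an E3 ligase that prompts the endocytosis of Notch ligands, had 67.4, 70.5 and 93.0 in shSca-1 cells, against 122, 129 and 111 in shLuc cells. The groups did not overlap, and the log2 difference was -0.66 (SE 0.19, unadjusted p = 0.0091, adjusted p = 0.35 from limma), or -0.72 without shLuc replicate 3 (adjusted p = 0.10). It no longer met the methods' thresholds with another normalization, a higher floor, no trend in the variance, the methods' t-test or the replicate block, nor without replicate 1 or 2 of either group. Without shLuc replicate 3, 2 of the 69 passed an adjusted p of 0.05 as lower, against 2.73% of all genes, and 2 as higher, against 1.17%. The lower ones were Nedd4, an E3 ligase, at 3502, 3791 and 3907 in shSca-1 cells and 4931, 4879 and 3921 in shLuc cells (-0.40, adjusted p = 0.029 from limma), and Bhlhe40, a transcriptional repressor, at 1281, 1331 and 1315 in shSca-1 cells and 1666, 1698 and 1229 in shLuc cells (-0.36, adjusted p = 0.034). The higher ones were Hdac2, a histone deacetylase of co-repressor complexes, and Ccnd1, which encodes cyclin D1. Hdac2 had 2316, 2468 and 2303 in shSca-1 cells and 1893, 1809 and 2305 in shLuc cells (0.35, adjusted p = 0.041 from limma). Ccnd1 had 5784, 5586 and 5900.0 in shSca-1 cells and 4509, 4548 and 6018 in shLuc cells (0.35, adjusted p = 0.027 from limma). For these 4 genes shLuc replicate 3 lay next to the shSca-1 arrays, among them or beyond them, and the differences on all 6 arrays were -0.29 for Nedd4, -0.21 for Bhlhe40, 0.25 for Hdac2 and 0.21 for Ccnd1.

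The remaining receptors and ligands had none past either threshold. The 2 with the smallest p were Dner and Dll4. Dner, a Notch-like ligand of neurons, had 32.0, 31.2 and 40.2 in shSca-1 cells, against 24.4, 18.04 and 14.6 in shLuc cells, a log2 difference of 0.88 (SE 0.30, adjusted p = 0.45 from limma) without overlap, though near or below the array medians. Dll4, the Delta-like ligand of blood vessels, had 22.3, 21.0 and 23.4 in shSca-1 cells, against 17.6, 20.9 and 4.83 in shLuc cells, with a difference of 0.88 (SE 0.57, adjusted p = 0.69 from limma). Every Dll4 value lay below the array medians, and the lowest was on shLuc replicate 3. On the 5 arrays other than shLuc replicate 3 the differences were 0.71 for Dner and 0.21 for Dll4.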

How the data were processed

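RNA from cultured Wnt1-YL cells was hybridized to 6 Affymetrix mouse arrays, 3 per group. The authors extracted RNA with TRIzol, made randomly primed cDNA, and computed the deposited intensity values with dChip, by the difference of perfect-match and mismatch probes, after scaling the arrays on an invariant set of probes. The methods and the design text name different versions of the array, and the table holds 45101 probe sets. Subtracting mismatch signal can leave dim values noisy, and precision is limited by how few arrays there are. Genome build and dChip version are not given in the sources used here.

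The log2 of each value was used, after a floor of 1, with the 64 control probe sets left out. The test was limma 3.58.1 (R 4.3.3, lmFit and eBayes with trend, no replicate block), with p-values adjusted by the Benjamini-Hochberg method over 45037 probe sets. Of these, 34945 had 1 gene symbol, 932 several and 9160 none in the platform annotation, and all 19 Notch probe sets matched the reference gene table by Entrez identifier. A gene is given by its probe set with the highest mean log2 value. The script was tested on data simulated with the spread of these arrays. At an adjusted p under 0.05 from limma, it recovered 40% of log2 changes of 1 and 83% of those of 2 on 6 arrays. Without shLuc replicate 3 it recovered 58% and 89%. On 6 arrays the differences of the Notch genes other than Hey1 were smaller than 1, so a missing call is not evidence of no change. The named genes are the 10 with every probe set, Ly6a, and, of the other pathway lists, those past the methods' thresholds on 6 arrays or an adjusted p of 0.05 without shLuc replicate 3, and otherwise the 2 with the smallest p. Members and lists were chosen with earlier results of these data known. Replicates were not paired, since the methods describe no pairing. Deviations of same-numbered arrays from their group means correlated at -0.04, -0.02 and -0.03. With shLuc replicate 3 standing apart in its group, these values could hardly have shown a pairing. Promoters were matched by symbol in the RefSeq table, which held 7 of the 10 genes. Alternatives covered normalization, floors on dim values, a filter, the variance model, the methods' t-test, the choice of probe set, leaving out each array, and a replicate block.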

Additional observations from a re-analysis of the deposited data

How the results depend on the processing

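On 6 arrays, the count of the 10 genes past an adjusted p of 0.05 was 0 from limma, with 3 at an unadjusted p under 0.05, and ranged from 0 to 1 when each array was left out in turn (Hes1 without shLuc replicate 3). The count past the methods' thresholds was 0, with a range of 0 to 1 genes (Notch1) and 0 to 2 probe sets, both highest without shLuc replicate 3. The 1 other pathway gene past those thresholds, Mib2, became 0 with quantile normalization, with centring, with floors of 16 or 64, with no trend, with the methods' t-test and with the replicate block, and ranged from 0 to 2 when each array was left out (Mib2 and Dtx3 without shLuc replicate 3, and 0 without replicate 1 or 2 of either group). The replicate block left the counts of Notch genes at 0.

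Without shLuc replicate 3, the 1 call became 2 (Notch1 and Hes1) with quantile normalization and with the filter at the 40 percentile, and 0 with floors of 16 or 64, with no trend and with the methods' t-test. It ranged from 0 to 3 when each shSca-1 array was also left out, 3 being Notch1, Jag2 and Hes1 without shSca-1 replicate 3. The Hes1 difference stayed at -0.54 with floors of 16 and 64 (adjusted p = 0.11 and 0.22 from limma), with no trend (0.29) and with the methods' t-test (0.24), and ranged from -0.60 to -0.48 with each shSca-1 array also left out. These settings added to that omission were chosen after seeing the data.

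Leaving out each array gave Notch1 a range of -0.68 to 0.061, Jag1 -0.013 to 0.72, Jag2 -0.40 to 0.64, Hey1 -2.06 to 0.61 and Nrarp -0.29 to 0.095. Nrarp was also 0.010 with quantile normalization and 0.00080 with centring, and Notch2 was 0.077 as the mean of its probe sets. The causes were not tested. Notch3, Dll1 and Hes1 kept their direction in all 16 alternatives, and Heyl in 15, being 0 with the floor of 64. Intensities near or below the array medians, as for Heyl, Hey1 on 5 arrays and the dim probe sets of Notch2 and Notch3, limit what could be detected.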
